A study of Homo sapiens with 9 samples.

Results

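The genes described here encode sensors of double-stranded RNA, their regulators and the zinc finger antiviral protein ZAP. They are 10 genes picked by symbol, of 60683 gene IDs counted: EIF2AK2, PRKRA, ADAR, ADARB1, IFIH1, DHX58, MAVS, TLR3, ZC3HAV1 and ZC3HAV1L. ZC3HAV1L was picked because it was nearly lost in 1 of the cell clones, so its values are given as a description, with no test. Levels were measured in 9 RNA-seq libraries of HEK293T, a human cell line made from embryonic kidney that carries large T antigen of SV40. The parental line had no reporter. Clone 15 and clone 37 each came from a single sorted cell after the piggyBac transposon had inserted 2 reporters into the genome. One is ATG-(CAG)60-Myc-NLuc, with 60 CAG units, and the other, ATG-(CAG)0-Myc-FLuc, has 0. Per the labels, both reporters are expressed at a low level in clone 15 and at a high level in clone 37. Each group had 3 replicates. Each level is represented by 1 clone, so the level of the reporters and other differences between clones cannot be told apart. Reads were 100 bp long in clone 15 and 75 bp long in the other groups, so the effects of read length and of being clone 15 cannot be told apart either.

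Double-stranded RNA is rare in healthy cytoplasm, and several proteins treat it as a sign of infection. PKR (EIF2AK2) stops translation by phosphorylating eIF2 alpha. MDA5 (IFIH1) signals through MAVS on mitochondria to switch on interferon genes, and TLR3 does so from endosomes. ADAR enzymes convert adenosine to inosine in paired RNA and so keep a cell's own transcripts from being sensed. ZAP (ZC3HAV1) binds CG-rich RNA and directs it to decay. RNA with expanded CAG repeats folds into hairpins, which is why these genes are of interest beside a CAG reporter.

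Gene counts summed to between 10334090 and 38093340 per library, and all 3 clone 15 libraries were deeper than the others. The share of counts on the transcript strand was 92.6% to 94.0%. All 7 markers listed for the HEK293T line were at 1 CPM (count per 1000000 gene counts of a library) or more in each group. Their summed level was 1269 to 1559 CPM in parental cells, 4036 to 4189 CPM in clone 15 and 778 to 845 CPM in clone 37. Markers of endothelium, hepatocytes, leukocytes and macrophages were low. The 3 endothelial genes summed to at most 0.650 CPM, 2 hepatocyte genes to at most 0.387 CPM and 5 leukocyte and macrophage genes to at most 1.38 CPM. The 4 fibroblast genes were not all low. COL1A1 reached a mean of 1 CPM in each group and LUM in parental cells only, while DCN and PDGFRB were under 1 CPM in each group. Their sum was 35.6 to 38.1 CPM in parental cells, 49.3 to 112 CPM in clone 15 and 19.2 to 21.3 CPM in clone 37. In bulk RNA, fewer cells of a type and less RNA per cell cannot be told apart.

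The promoters of sensor genes are known to carry interferon-stimulated response elements, and those of the members were searched for the core of that element, GAAA, any 2 bases and GAAA again, on both strands. RefSeq windows from 250 bases before to 50 bases after a gene start (GRCh38.p14) were had for 9 of the 10 members. Of all 35116 windows, 3.57% held a match. Among the members EIF2AK2 held 1 match, IFIH1 held 3, of which 2 overlap, and TLR3 held 1. The match in EIF2AK2 runs from base -6 to base 4 around the start, the one in TLR3 from -4 to 6, and those in IFIH1 from -159 to -150, -153 to -144 and -21 to -12. EIF2AK2 and IFIH1 were called different between the 2 clones, as were 57.7% of all genes tested. PRKRA, ADAR, ADARB1, MAVS and ZC3HAV1, which held no match, were called too. TLR3, with 2, 11 and 5 counts in clone 37, was not called. The part of the motif in these results was not tested. The windows below are shown because these are the 3 members with the motif. They lie at chr2:37156977-37157100 (minus strand) for EIF2AK2, chr2:162318685-162318854 (minus strand) for IFIH1 and chr4:186069036-186069161 (plus strand) for TLR3, and capitals mark the matches.
EIF2AK2: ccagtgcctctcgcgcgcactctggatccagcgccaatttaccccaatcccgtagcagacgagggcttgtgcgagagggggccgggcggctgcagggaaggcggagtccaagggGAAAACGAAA
IFIH1: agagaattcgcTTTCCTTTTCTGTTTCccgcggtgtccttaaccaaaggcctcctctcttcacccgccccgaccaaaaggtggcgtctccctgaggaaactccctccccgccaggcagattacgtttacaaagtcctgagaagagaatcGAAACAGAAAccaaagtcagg
TLR3: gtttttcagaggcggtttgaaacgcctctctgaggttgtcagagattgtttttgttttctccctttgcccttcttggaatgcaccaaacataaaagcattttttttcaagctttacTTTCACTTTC

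The pair of ZAP genes lies side by side on chromosome 7, and the 120 bases ahead of each start are shown because 1 of the pair was nearly lost in clone 37 while the other was not. They lie at chr7:139036043-139036162 for ZC3HAV1L and chr7:139109721-139109840 for ZC3HAV1, both on the minus strand. Capitals mark CG dinucleotides, the sites where DNA can be methylated, which was not measured here. There are 13 in the window of ZC3HAV1L and 7 in that of ZC3HAV1. In the full 300-base windows the numbers are 33 and 17, and 82.8% and 54.0% of all promoters have fewer.
ZC3HAV1L: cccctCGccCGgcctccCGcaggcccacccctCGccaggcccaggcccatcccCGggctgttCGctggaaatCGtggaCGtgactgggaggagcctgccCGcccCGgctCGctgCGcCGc
ZC3HAV1: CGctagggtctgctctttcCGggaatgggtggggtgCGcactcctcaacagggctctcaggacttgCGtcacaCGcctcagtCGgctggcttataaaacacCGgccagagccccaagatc

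Levels of different genes were compared as CPM per kilobase of merged exon length in GENCODE 29. In parental cells ADAR stood highest, at 54.9 ± 1.77 CPM per kb (SD, n = 3). ZC3HAV1L followed at 22.8 ± 0.308, ZC3HAV1 at 17.2 ± 1.12, MAVS at 16.4 ± 0.633 and EIF2AK2 at 15.5 ± 0.564 CPM per kb. PRKRA had 10.8 ± 0.0782 and ADARB1 4.15 ± 0.510 CPM per kb. The sensor IFIH1, the regulator DHX58 and the sensor TLR3 were lowest, at 0.218 ± 0.0468, 0.133 ± 0.0306 and 0.113 ± 0.0382 CPM per kb, in that order. Parental ranges overlapped between ZC3HAV1 and MAVS, MAVS and EIF2AK2, IFIH1 and DHX58, and DHX58 and TLR3, so those neighbours in the order did not separate. In clone 15 ZC3HAV1L ranked 4, below ZC3HAV1, and in clone 37 it ranked 9, at 0.211 ± 0.119 CPM per kb. IFIH1 ranked 8 in parental cells, 10 in clone 15 and 7 in clone 37, where it had 0.688 ± 0.0297 CPM per kb. These ranks do not all separate: ranges overlapped between EIF2AK2 and PRKRA and between TLR3 and IFIH1 in clone 15, and ZC3HAV1L overlapped DHX58 and TLR3 in clone 37.

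**Figure D1:**
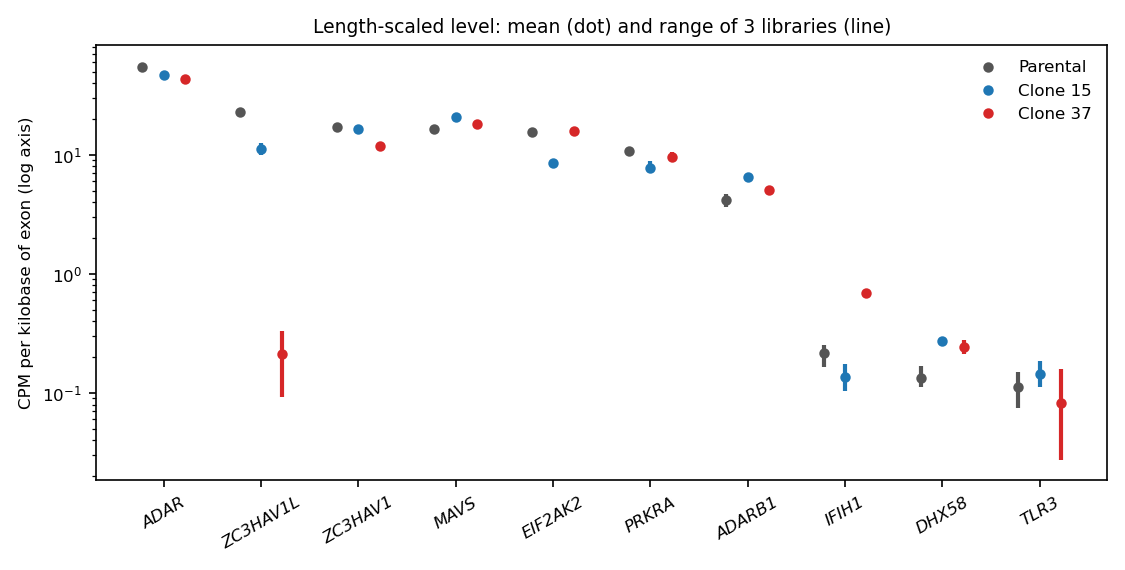
Level of each gene per kilobase of exon, on a log axis, with a dot for the mean and a line for the range of the 3 libraries in parental cells, clone 15 and clone 37. ADAR is highest in each group (43.3 to 54.9 CPM per kb), while ZC3HAV1L drops from 22.8 in parental cells to 0.211 CPM per kb in clone 37.

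Calls were read against the whole table, because a large share of all genes was called. In clone 37 against parental cells 54.0% of 16501 genes tested were called by edgeR's quasi-likelihood test at an adjusted p under 0.05. In clone 15 against parental cells the share was 51.4% of 17703 genes, and between the clones it was 57.7% of 17712 genes. The CPM ranges of the groups did not overlap for 61.7%, 59.5% and 63.5% of the genes tested. Leaving ZC3HAV1L aside, 9 members remained. In clone 37, 5 of them were called, 2 higher and 3 lower against 26.7% and 27.3% of all genes tested, 2 were not called, and DHX58 and TLR3 had too few counts to be tested. In clone 15 all 9 were tested and 6 were called, 3 higher and 3 lower against 25.1% and 26.2% of all genes tested. One of the 3 higher is DHX58, which passed the filter on low counts only through the clone 15 libraries, where it is high. Between the clones 7 of 9 were called, 3 higher and 4 lower in clone 37 against 28.7% and 29.0% of all genes tested. IFIH1 is among those called higher in clone 37 against parental cells and against clone 15. It passed the filter on low counts through the clone 37 libraries, where it is high. The 3 comparisons share libraries, so these counts are not independent. Clone 37's count was 3 without clone 37 replicate 3 and 7 with trends of GC content and transcript length removed. Clone 15's count was 4 or 5 when any 1 library was left out. With those trends removed, 5 were called between the clones.

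**Figure D2:**
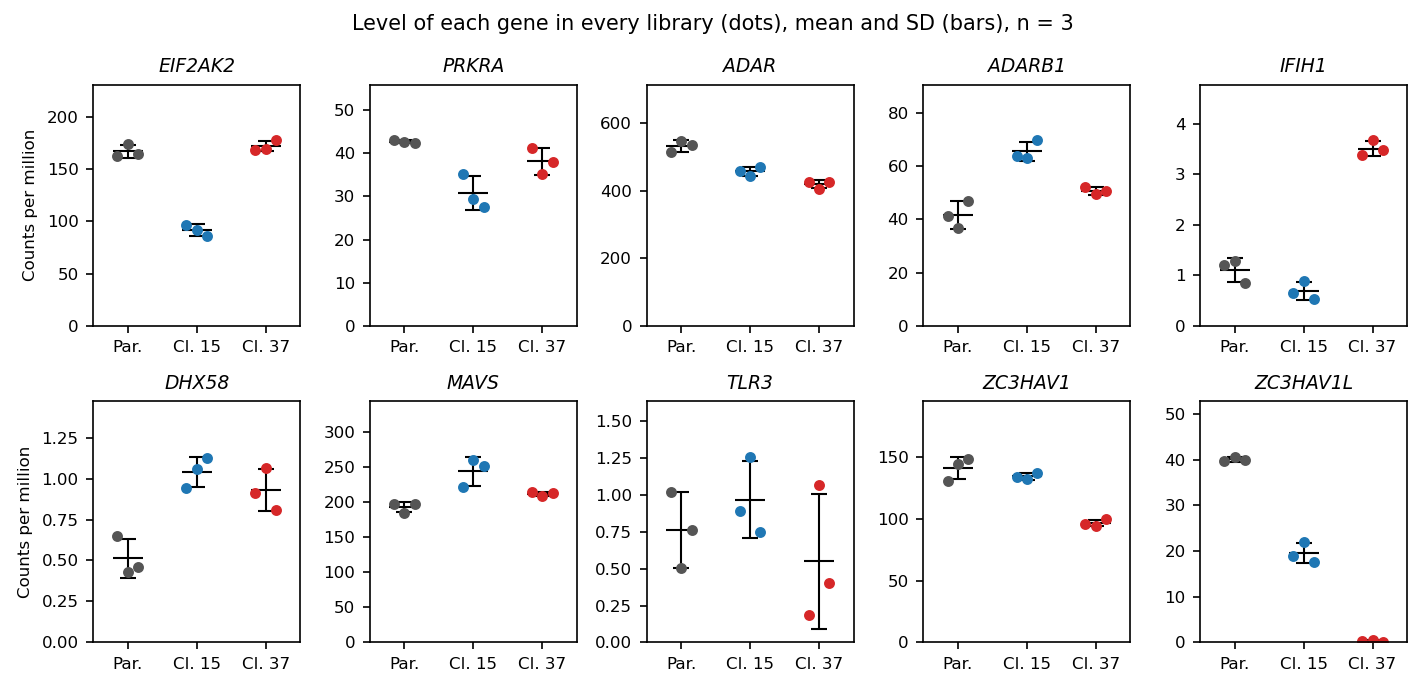
CPM of each of the 10 genes in every library, with a panel per gene, dots for the 3 replicates of parental cells (Par.), clone 15 (Cl. 15) and clone 37 (Cl. 37), and bars for the mean and SD. EIF2AK2 is lower in all clone 15 libraries, IFIH1 is higher in all clone 37 libraries and ZC3HAV1L steps down from about 40.0 to 19.5 to 0.369 CPM.

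PKR and its activator came first. EIF2AK2 (ENSG00000055332, chromosome 2, 37099210 to 37157065) had 162, 174 and 164 CPM in parental cells, 96.7, 91.9 and 86.2 CPM in clone 15 and 168, 169 and 177 CPM in clone 37. All clone 15 libraries lay below all others, while parental and clone 37 libraries overlapped. In clone 15 the gene fell by 0.89 on the log2 scale against parental cells (SE 0.08, adjusted p 1.66e-09). For clone 37 the value was 0.02 (SE 0.06, adjusted p 0.829), and its sign changed under 6 of 15 alternatives. The gene was 1.88-fold higher in clone 37 than in clone 15 (adjusted p 1.79e-13). Once trends with GC content and transcript length were taken out, the clone 37 change was 0.16 and was called (adjusted p 0.0352). The clone 15 change was then -0.60 (adjusted p 1.56e-06), and the log2 difference between the clones went from 0.91 to 0.76 (adjusted p 6.06e-16).

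PRKRA (ENSG00000180228, chromosome 2, 178431414 to 178451512) encodes PACT, a protein that binds and activates PKR. Its level was 43.0, 42.7 and 42.4 CPM in parental cells, 35.2, 29.5 and 27.6 CPM in clone 15 and 41.3, 35.1 and 37.9 CPM in clone 37. Both clones lay below all parental libraries, and the clones overlapped each other. On the log2 scale clone 15 was at -0.50 relative to parental cells (SE 0.10, adjusted p 0.000149), and at -0.29 (adjusted p 0.0066) with GC and length trends removed. Clone 37 was at -0.19 (SE 0.08, adjusted p 0.0445). The clone 37 call was lost under 8 of 15 alternatives, among them the DESeq2 test (adjusted p 0.0997), and without parental replicate 1 (-0.19), clone 37 replicate 2 (-0.13) or clone 37 replicate 3 (-0.21). PRKRA overlaps PJVK on the opposite strand, and unstranded counts held 58.7% to 68.7% of its stranded counts, so strand matters for this gene. Between the clones the difference was 0.30 (SE 0.09, adjusted p 0.00578), and it was not called with unstranded counts (0.19) or with GC and length trends removed (0.097).

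The 2 active editing enzymes moved in opposite directions. ADAR (ENSG00000160710, chromosome 1, 154582057 to 154628013), the broadly expressed editor, had 514, 548 and 534 CPM in parental cells, 457, 443 and 472 CPM in clone 15 and 425, 406 and 427 CPM in clone 37. The 3 groups did not overlap. It fell by 0.37 on the log2 scale in clone 37 (SE 0.06, adjusted p 8.33e-05). The fall in clone 15 was smaller, at -0.25 (SE 0.09, adjusted p 0.0191). The clone 15 call was lost without clone 15 replicate 1 (-0.23, adjusted p 0.0528) or replicate 2 (-0.20, adjusted p 0.0516). The difference between the clones was -0.12 (SE 0.05, adjusted p 0.0483) and lost its call under 11 of 15 alternatives, including leaving out any library other than clone 15 replicate 2. Counts are per gene, so the interferon-inducible and constitutive forms of ADAR were not separated.

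ADARB1 (ENSG00000197381, chromosome 21, 45073853 to 45226560) encodes ADAR2, the editor best known for recoding neuronal transcripts. Its values were 41.4, 36.8 and 47.0 CPM in parental cells, 64.0, 63.2 and 69.8 CPM in clone 15 and 52.2, 49.4 and 50.7 CPM in clone 37. Every clone 15 library stood above every clone 37 library, and these stood above the parental ones. The gene rose 1.54-fold in clone 15 (log2 0.63, SE 0.09, adjusted p 2.5e-06) and 1.20-fold in clone 37 (log2 0.26, SE 0.08, adjusted p 0.0113). The clone 37 call was lost without clone 37 replicate 1 (0.24) or clone 37 replicate 3 (0.23), and the value was 0.17 without parental replicate 2, still called (adjusted p 0.0264). Clone 37 was lower than clone 15 by a log2 difference of -0.36 (SE 0.07, adjusted p 3.97e-05), or -0.23 (adjusted p 0.000814) with GC and length trends removed. ADARB2, the catalytically inactive relative, had 0 to 2 counts in each library.

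IFIH1 (ENSG00000115267, chromosome 2, 162267079 to 162318703), the MDA5 sensor of long double-stranded RNA, was the tested member with the largest rise. It had 13, 18 and 11 counts in parental cells, 25, 22 and 10 in the deeper clone 15 libraries and 37, 38 and 43 in clone 37. As CPM these are 1.20, 1.29 and 0.842 in parental cells, 0.656, 0.893 and 0.536 in clone 15 and 3.38, 3.68 and 3.48 in clone 37. All clone 37 libraries lay above all others, and parental and clone 15 libraries overlapped. The gene was 3.08-fold higher in clone 37 than in parental cells (log2 1.62, SE 0.27, adjusted p 5.8e-05) and 4.99-fold higher than in clone 15 (log2 2.32, SE 0.27, adjusted p 3.32e-08). In both comparisons all 3 clone 37 libraries but only 2 of 3 libraries of the other group reached the level the filter on low counts asks for, so IFIH1 was tested through clone 37, where it is high. With no such filter the values were 1.61 (adjusted p 2.21e-07) and 2.31 (adjusted p 6.48e-14), and both calls held under all 15 alternatives of each. In clone 15 the log2 fold change was -0.70 (SE 0.37, adjusted p 0.119), which the depth does not resolve. The 5 leukocyte and macrophage markers summed to 0.144 to 0.555 CPM in parental cells, 0.609 to 1.10 CPM in clone 15 and 1.10 to 1.38 CPM in clone 37. CD14, a monocyte marker, reached a mean of 1 CPM in clone 37 only, and the other 4 (PTPRC, CD3E, CD68 and LYZ) were under 1 CPM in each group, with CD3E at 0 counts in all 9 libraries. The part of these markers in the IFIH1 result was not tested.

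DHX58 (ENSG00000108771, chromosome 17, 42101404 to 42112733) encodes LGP2, which binds RNA ends and modulates MDA5. It was near the limit of detection, with 7, 6 and 6 counts in parental cells, 36, 26 and 21 in clone 15 and 10, 11 and 10 in clone 37. The levels were 0.648, 0.432 and 0.459 CPM in parental cells, 0.945, 1.06 and 1.13 CPM in clone 15 and 0.913, 1.06 and 0.810 CPM in clone 37, so both clones lay above all parental libraries. In clone 15 it was called higher (log2 0.99, SE 0.40, adjusted p 0.0394), but it passed the count filter there through the deep clone 15 libraries, and 11 of 13 alternatives lost the call. These included each of the 6 fits without 1 library, which gave 0.89 to 1.15. With no filter on low counts the clone 37 change was 0.83 (SE 0.46, adjusted p 0.204). The difference between the clones was -0.15 (SE 0.34, adjusted p 0.723). Of its counts 14.2% lay on the opposite strand.

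TLR3 (ENSG00000164342, chromosome 4, 186069152 to 186088069), the endosomal receptor, had 11, 7 and 10 counts in parental cells, 34, 31 and 14 in clone 15 and 2, 11 and 5 in clone 37. That is 1.02, 0.503 and 0.765 CPM, 0.893, 1.26 and 0.751 CPM, and 0.183, 1.06 and 0.405 CPM. The 3 groups overlapped. For clone 15 the change was 0.35 (SE 0.39, adjusted p 0.471), and it was 0.13 without parental replicate 2, 0.16 without clone 15 replicate 2, 0.56 without parental replicate 1 and 0.68 with GC and length trends removed. With no filter on low counts, clone 37 had -0.50 (SE 0.48, adjusted p 0.524). Between the clones all 3 clone 15 libraries but only 1 of 3 clone 37 libraries reached the level the filter on low counts asks for. TLR3 was thus tested through clone 15, where it is high. The difference was -0.84 (SE 0.45, adjusted p 0.111). Without clone 37 replicate 2, the only clone 37 library at that level, it was -1.66 and was called (adjusted p 0.0179). Without clone 37 replicate 1 it was -0.43 (adjusted p 0.491). It was also called with GC and length trends removed (-1.07, adjusted p 0.0398).

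MAVS (ENSG00000088888, chromosome 20, 3846799 to 3876123), the mitochondrial adaptor through which MDA5 and RIG-I signal, had 198, 185 and 198 CPM in parental cells, 221, 261 and 251 CPM in clone 15 and 214, 209 and 213 CPM in clone 37. Clone 15 lay above clone 37 and clone 37 above parental cells in every library. The rise in clone 15 was 0.31 on the log2 scale (SE 0.08, adjusted p 0.00264). In clone 37 it was 0.11 (SE 0.05, adjusted p 0.105), or 0.25 (adjusted p 0.00147) with GC and length trends removed. Clone 37 was lower than clone 15 by a log2 difference of -0.20 (SE 0.06, adjusted p 0.00388), which became -0.0092 (adjusted p 0.879) with those trends removed.

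ZC3HAV1 (ENSG00000105939, chromosome 7, 139043520 to 139109719) encodes ZAP. It had 131, 145 and 148 CPM in parental cells, 134, 132 and 138 CPM in clone 15 and 96.4, 94.4 and 99.9 CPM in clone 37. All clone 37 libraries lay below all others, and parental and clone 15 libraries overlapped. The gene was 1.49-fold lower in clone 37 than in parental cells (log2 -0.57, SE 0.06, adjusted p 5.95e-07) and 1.38-fold lower than in clone 15 (log2 -0.47, SE 0.06, adjusted p 5.06e-08). The clone 15 change was -0.10 (SE 0.08, adjusted p 0.296), and 0.053 with GC and length trends removed.

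ZC3HAV1L (ENSG00000146858, chromosome 7, 139025706 to 139036029) encodes a relative of ZAP and lies next to it on the same strand. Its loss in clone 37 is why it was picked, so the values that follow carry no test. There were 428, 565 and 521 counts in parental cells, 723, 539 and 328 in clone 15 and 4, 6 and 2 in clone 37. As CPM these are 39.6, 40.6 and 39.9 in parental cells, 19.0, 21.9 and 17.6 in clone 15 and 0.365, 0.581 and 0.162 in clone 37. The 3 groups did not overlap. The fitted level was 111-fold lower in clone 37 than in parental cells, 53.5-fold lower than in clone 15, and 2.10-fold lower in clone 15 than in parental cells. Within a library, ZC3HAV1 had 3.31 to 3.72 counts per count of ZC3HAV1L in parental cells, 6.05 to 7.82 in clone 15 and 163 to 617 in clone 37. None of the 75-base words of either gene's longest transcript occur in another annotated gene. On the opposite strand ZC3HAV1L had 5 to 32 counts in each parental and clone 15 library and 0 in each clone 37 library.

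Most genes around ZC3HAV1L were lower in clone 37 as well. Distances here are between the lowest coordinates of gene spans, whatever the strand. Of the 11 other genes tested within 1 Mb of it, ZC3HAV1 among them, 10 were called lower in clone 37 than in parental cells and 0 higher, against 27.3% called lower among all genes tested. Their median log2 fold change was -0.99, and it was 0.024 over all genes tested. Among those called, FMC1 (0.722 ± 0.358 CPM in clone 37) and an antisense gene (1.00 ± 0.198 CPM) were low, and both are named after their values were seen. Their lowest clone 37 libraries fell under the 0.858 CPM that the filter on low counts asks for. Both were thus tested through parental cells, where they are high. KLRG2, at -0.12 (SE 0.13, adjusted p 0.437), was the gene not called, and it is named after its value was seen. Within 250 kb, KIAA1549 had -0.99 (SE 0.06), TTC26, which encodes a protein of cilia assembly, had -0.90 (SE 0.08), and UBN2, which encodes a subunit of a histone H3.3 chaperone, had -1.11 (SE 0.07). ZC3HAV1, at -0.57, was thus lower by less than these 3, and ZC3HAV1L, at -6.79, lay far beyond them. In clone 15 the same 11 genes had a median of -0.21, with 5 called lower and 1 higher (KLRG2, 0.48), against 26.2% and 25.1% of all genes tested. ZC3HAV1L was at -1.07 there. Between the clones 10 of the 11 were lower in clone 37 and 0 higher, with a median of -0.75, against 29.0% of all genes tested called lower.

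**Figure D3:**
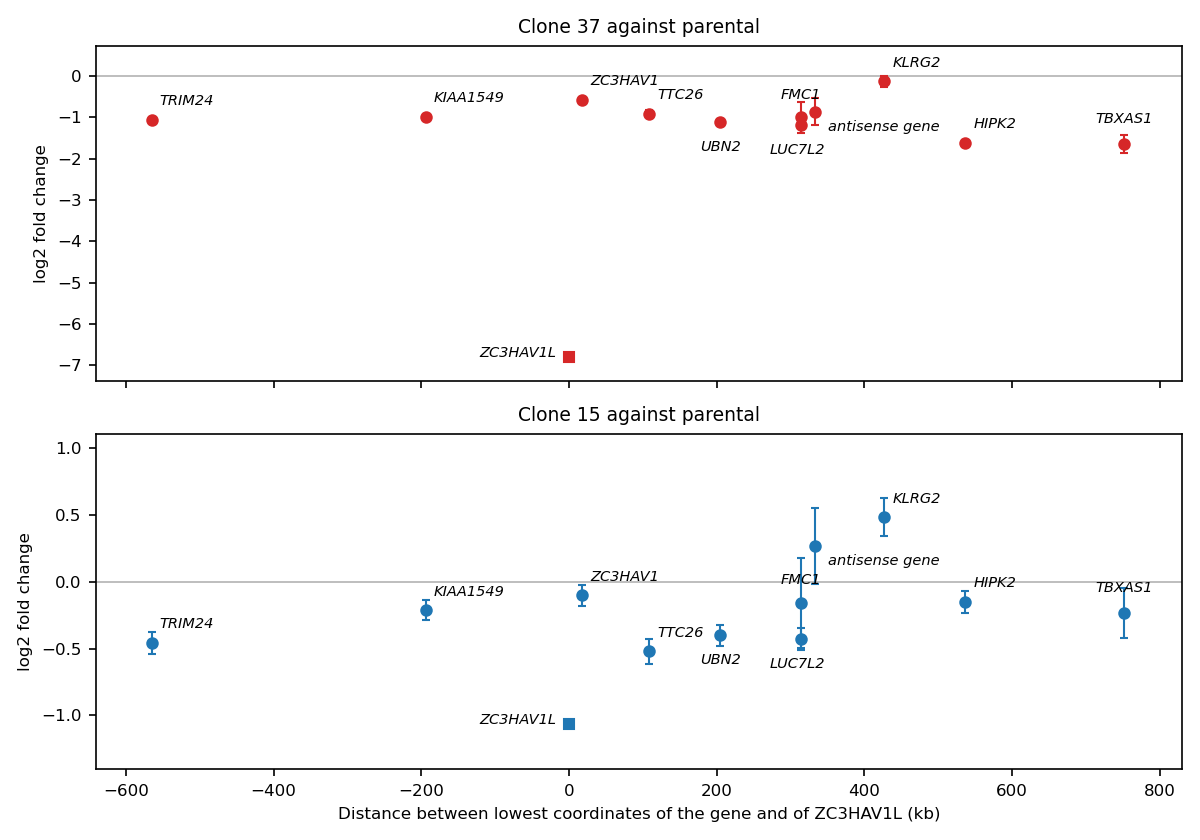
Fitted log2 fold change of each tested gene within 1 Mb of ZC3HAV1L, by distance in kb between the lowest coordinates of the gene spans, in clone 37 (top) and clone 15 (bottom) against parental cells, with SE bars except for ZC3HAV1L (square), and with different vertical scales. In clone 37 the other genes lie between -1.64 and -0.12 and ZC3HAV1L at -6.79; in clone 15 they lie between -0.52 and 0.48 and ZC3HAV1L at -1.07.

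Each member was also set beside its surroundings, the nearest tested genes on the same chromosome, up to 100 in number. Around ZC3HAV1 the median log2 fold change was -0.91 in clone 37 and -0.21 in clone 15. EIF2AK2, PRKRA and IFIH1 all lie on chromosome 2, apart from each other, in regions that were lower in both clones. The median around EIF2AK2 was -0.37 in clone 37, where the gene itself was at 0.02, and -0.51 in clone 15, where the gene was at -0.89. Around PRKRA it was -0.51 and -0.58, against -0.19 and -0.50 for the gene. Around IFIH1 it was -0.42 in clone 37, where the gene was at 1.62, and -0.62 in clone 15, where it was at -0.70. ADAR had neighbours at -0.18 and -0.051 and ADARB1, with 72 neighbours, at 0.10 and 0.30, so both genes lay further from 0 than their surroundings in either clone. The median around MAVS was 0.27 in clone 37 and 0.40 in clone 15, above the 0.11 and 0.31 of the gene. The part of these surroundings in the members' changes was not tested.

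**Figure D4:**
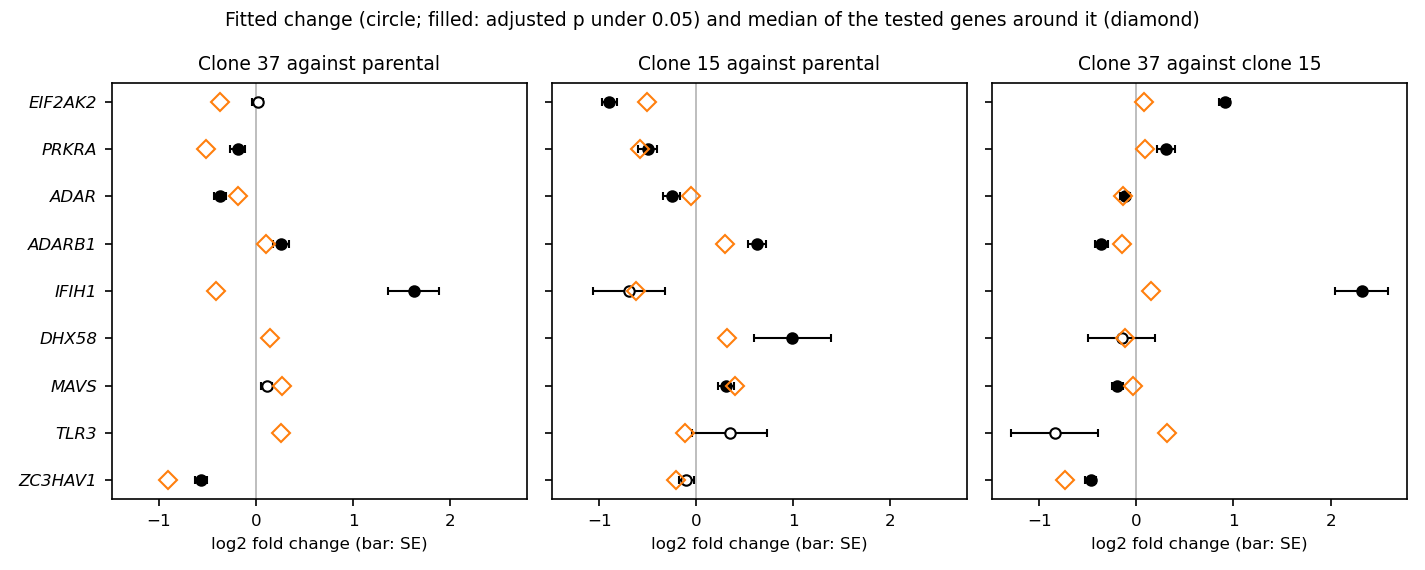
Fitted log2 fold change with SE of 9 members (circles, filled where the adjusted p was under 0.05, absent where not tested) and the median of up to 100 tested genes around each (diamonds), in the 3 comparisons. IFIH1 in clone 37 stands at 1.62 with its neighbours at -0.42, while MAVS and PRKRA in clone 15 lie close to their neighbours.

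Further genes of these pathways were taken from lists. In each list the counts stand beside 26.7% of all genes tested called higher and 27.3% called lower in clone 37, and 25.1% and 26.2% in clone 15. Of 14 partners and adaptors between the sensors and interferon, 13 were tested. Clone 37 had 6 of these called higher and 2 called lower, and clone 15 had 6 higher and 1 lower, with medians of 0.081 and 0.12 (0.024 and 0.015 over all genes tested). TRIM25, a ubiquitin ligase that serves both RIG-I and ZAP, rose from 69.5 ± 6.25 to 122 ± 4.40 CPM in clone 37 (log2 0.79, SE 0.07) and to 94.0 ± 2.82 CPM in clone 15 (log2 0.40, SE 0.09) (SD, n = 3). TRAF2, a signalling adaptor, rose by 0.71 (SE 0.07) and 0.75 (SE 0.09). IRF3, the factor that turns on interferon genes once phosphorylated, was lower in clone 37 (-0.40, SE 0.08) and higher in clone 15 (0.47, SE 0.09), and the difference between the clones was -0.87 (SE 0.07, adjusted p 5.94e-11). The kinase IKBKE was higher in clone 15 (0.55, SE 0.15) and was at -0.25 (SE 0.18, adjusted p 0.257) in clone 37. IRF7, named after its values were seen, had 6, 13 and 8 counts in parental cells, 102, 79 and 51 in clone 15 and 37, 28 and 33 in clone 37, with log2 fold changes of 1.97 (SE 0.31) and 1.99 (SE 0.31). It passed the filter on low counts through the clones, where it is high. RIGI, the sensor RIG-I and likewise named afterwards, had 5.25 ± 0.249 CPM in parental cells, 5.90 ± 0.893 in clone 15 and 5.65 ± 0.650 in clone 37 (SD, n = 3). Its log2 fold changes were 0.12 (SE 0.18) in clone 15 and 0.08 (SE 0.17) in clone 37. IFNB1, which encodes interferon beta, had 0 counts in all 9 libraries, which allows up to 0.0788 to 0.290 CPM depending on the library, for counting error only.

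The OAS enzymes make a short oligoadenylate messenger when they bind double-stranded RNA. Of 6 genes reported from this list OAS1, OAS2 and OASL were too low for the test. The other 3 gave 3 higher and 0 lower for clone 37, and 1 higher and 1 lower for clone 15. OAS3 rose from 5.46 ± 0.559 CPM in parental cells to 12.5 ± 0.938 CPM in clone 37 and 12.5 ± 0.823 CPM in clone 15 (SD, n = 3), with log2 fold changes of 1.17 (SE 0.14) and 1.16 (SE 0.15). ABCE1, a ribosome recycling factor, was higher in clone 37 (0.88, SE 0.07) and at 0.08 (SE 0.09, adjusted p 0.44) in clone 15. PDE12, which degrades the messenger, was higher in clone 37 (0.15, SE 0.06) and lower in clone 15 (-0.21, SE 0.08). The median of these 3 tested genes was 0.88 in clone 37 and 0.082 in clone 15.

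Other double-stranded RNA binding proteins numbered 15, of which 13 were tested. Of these 3 were called higher and 1 lower in each clone, and the medians were 0.11 in clone 37 and 0.057 in clone 15. TARBP2, a Dicer partner that restrains PKR, was higher in clone 15 (0.72, SE 0.09, adjusted p 3.62e-07) and was at 0.07 (SE 0.08, adjusted p 0.454) in clone 37, with a called difference between the clones (-0.65, SE 0.08, adjusted p 3e-08). STAU2, which carries RNA in neurons, was lower in clone 15 (-0.42, SE 0.09) and in clone 37 (-0.19, SE 0.07). DUS2, a tRNA-modifying enzyme, was higher in clone 37 (0.56, SE 0.09) and at 0.19 (SE 0.10, adjusted p 0.127) in clone 15. The microRNA processor DROSHA was higher in both, at 0.31 (SE 0.05) and 0.21 (SE 0.08).

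The other eIF2 alpha kinases and the regulators of PKR made a list of 8. Clone 37 had 4 called lower and 2 higher (median -0.13), and clone 15 had 5 lower and 0 higher (median -0.34). The haem-regulated kinase EIF2AK1 was at -0.55 (SE 0.06) in clone 37 and -0.77 (SE 0.08) in clone 15, and the endoplasmic reticulum kinase EIF2AK3 at -0.65 (SE 0.08) and -0.72 (SE 0.10). DNAJC3, an inhibitor of PKR, was lower in clone 15 (-0.33, SE 0.09) and at -0.09 (SE 0.07, adjusted p 0.329) in clone 37. NPM1, the abundant nucleolar protein nucleophosmin, was higher in clone 37 (0.58, SE 0.10) and at -0.01 (SE 0.12, adjusted p 0.949) in clone 15.

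ZAP works with cofactors. Of 15 cofactors and related CCCH or PARP proteins, TRIM25 again among them, 13 were tested and 3 were called higher and 5 lower in each clone, with medians of 0.042 in clone 37 and -0.019 in clone 15. KHNYN, a nuclease that acts with ZAP, fell in clone 37 (log2 -0.62, SE 0.06, adjusted p 2e-07) and was at -0.02 (SE 0.08, adjusted p 0.855) in clone 15, with a difference of -0.60 (SE 0.06) between the clones. RIOK3, a kinase, was lower in clone 37 (-0.92, SE 0.07) and in clone 15 (-0.52, SE 0.08). EXOSC5, an exosome subunit, was higher in clone 15 (0.55, SE 0.11), and the deadenylase PARN was lower there (-0.40, SE 0.08). In clone 37 they were at 0.09 (SE 0.10, adjusted p 0.466) and 0.12 (SE 0.06, adjusted p 0.109). PARP12 and PARP14 had at most 2 counts in any library.

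Genes that answer interferon were given for comparison. Of 12 reported, clone 37 had 0 called higher and 3 lower among 8 tested, with a median of -0.078. Clone 15 had 2 higher and 1 lower among 9 tested, with a median of 0.059. One of the 2 higher is IFIT2, named after its values were seen, with 3, 3 and 5 counts in parental cells and 33, 19 and 13 in clone 15, through which alone it passed the filter on low counts. STAT2, a signalling factor of the interferon receptors, was lower in clone 37 (-0.27, SE 0.08) and higher in clone 15 (0.42, SE 0.09). IFIT1, an RNA cap sensor, was lower in clone 37 (-0.85, SE 0.20) and at -0.14 (SE 0.16, adjusted p 0.483) in clone 15. ISG15, a ubiquitin-like protein, fell in clone 15 (log2 -0.81, SE 0.22, adjusted p 0.00312) and was at 0.26 (SE 0.18, adjusted p 0.243) in clone 37, with a difference of 1.06 (SE 0.19, adjusted p 1.83e-05) between the clones. MX1 and RSAD2 were too low to be tested.

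**Figure D5:**
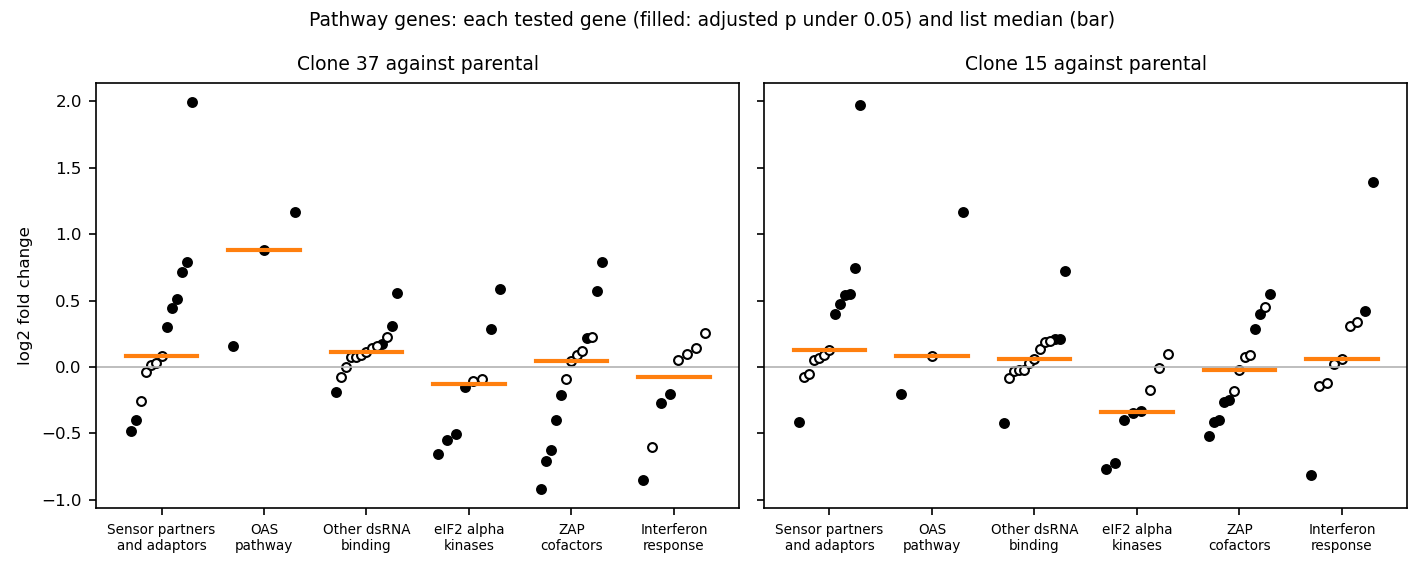
Fitted log2 fold change of every tested gene reported from the 6 pathway lists in clone 37 (left) and clone 15 (right) against parental cells, filled where the adjusted p was under 0.05, with a bar at each list's median. The topmost point of the first list in both panels is IRF7, at 1.99 and 1.97, which passed the filter on low counts through the clones, and the medians lie between -0.34 and 0.88.

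The genes whose pattern over the 9 libraries was most like that of ZC3HAV1L were sought among 11314 protein-coding genes with a mean of at least 5 CPM, by Pearson correlation of log2(CPM + 1). They were DDR2, a collagen receptor on chromosome 1, INA, a neuronal intermediate filament on chromosome 10, and NID2, a basement membrane protein on chromosome 14, each with r = 0.998. DDR2 had 235 ± 16.7 CPM in parental cells, 119 ± 4.02 in clone 15 and 7.65 ± 0.116 in clone 37 (SD, n = 3). For ZC3HAV1 they were PBRM1 and GOLIM4 on chromosome 3 (r = 0.993 and 0.990) and CUL1 on chromosome 7 (r = 0.990). The libraries form 3 groups and carry their depth and read length, so these values describe the order of the groups.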

How the data were processed

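Total RNA of 9 HEK293T libraries was depleted of ribosomal RNA, made into strand-specific libraries from 500 ng of RNA with 13 PCR cycles and sequenced from both ends, per the labels' protocols. The submitters' processing notes name FastQC 0.11.9, STAR 2.7.10a and the build hg38. The annotation release, trimming and filters are not given in the sources used here. Each deposited file gives raw gene counts in the layout of STAR's gene counts, which leave out reads that map to several places. Column 4, the transcript strand, was used. The 4 summary entries of each file were left out of totals and fits. Of read pairs, 19.2% to 34.6% had no annotated feature, 4.59% to 14.0% had several mapping places, and ambiguous pairs made up 3.76% to 4.40% and unmapped ones 1.24% to 5.16%.

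CPM are counts per 1000000 gene counts of the library. Each comparison was fitted on its 6 libraries with edgeR 4.0.16 in R 4.3.3 (filterByExpr, TMM, glmQLFit with robust estimation, glmQLFTest), with Benjamini-Hochberg adjustment over all genes tested and a call where that p was below 0.05. The standard error (SE) of a log2 fold change was taken from the F statistic, as the absolute change divided by its root. The test was also run on simulated counts with 200 changed genes, and its outcome is not given here. Symbols were found for 60370 of 60683 gene IDs, and 58496 IDs matched GENCODE 29 on GRCh38, the source of positions, exon lengths and neighbours. Promoters are RefSeq's on GRCh38.p14. A planned comparison of protein sequences was not made. DESeq2 1.42.0 was an alternative test. Python 3.11.15, numpy 2.4.6, pandas 2.3.3 and matplotlib 3.10.9 did the rest.

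The members and lists were chosen with earlier results of these data known. Besides the 10 members, the genes named are the 2 of each list with the largest called change in each comparison at a mean of at least 5 CPM, the coding genes within 250 kb of ZC3HAV1L by the lowest coordinates of their spans, and the 3 genes most like each ZAP gene. Exceptions are marked in the text. Of the listed genes, 2 are not reported here and were left out of list counts and medians. Replicates are numbered in the labels, which do not say whether they were separate cultures, so p-values measure only the spread between these libraries.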

Additional observations from a re-analysis of the deposited data

Results flagged for a closer look

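Each of the following differed between the 2 clones, which share the parental libraries as their control, by edgeR's test of clone 37 against clone 15. EIF2AK2 was higher in clone 37 by a log2 fold change of 0.91, and IFIH1, which passed the filter on low counts through the clone 37 libraries where it is high, by 2.32. PRKRA was higher by 0.30. ZC3HAV1 was at -0.47, ADARB1 at -0.36, MAVS at -0.20 and ADAR at -0.12, all lower in clone 37. The calls of ADAR, PRKRA and MAVS were lost under 11, 2 and 1 of 15 alternatives. Counts on the strand opposite to the transcript entered no test above other than the unstranded alternative. There ZC3HAV1 had a mean of 0.654 ± 0.0832 CPM in clone 15 (23, 15 and 14 counts, SD, n = 3). It had 0.306 ± 0.172 CPM in parental cells (2, 7 and 3 counts) and 0.276 ± 0.188 CPM in clone 37 (5, 3 and 1 counts). PRKRA went the other way, with 3.05 ± 0.583 CPM in parental cells and 1.26 ± 0.470 CPM in clone 15. The share of all genes that differ on that strand was not worked out.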

How the results depend on the processing

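Over 15 alternatives a comparison (fewer where a member fell under the filter), 317 of 367 fits of a tested member kept direction and side of the threshold, 37 lost a call, 4 gained one and 9 changed sign. The sign changes were in small values: EIF2AK2 in clone 37 (-0.0052 with the 1 CPM filter, -0.022 with unstranded counts, -0.023 thinned, and -0.010, -0.040 and -0.036 without parental replicate 1, parental replicate 3 or clone 37 replicate 3), ZC3HAV1 in clone 15 (0.053 with GC and length trends removed) and DHX58 between the clones (0.17 with unstranded counts, 0.10 thinned). For EIF2AK2 in clone 37 the fits without 1 library ran from -0.040 to 0.047. Leaving out 1 library gave 3 to 5 called members in clone 37, 4 to 5 in clone 15 and 6 to 7 between the clones, and 7487 to 10027, 7997 to 9071 and 9069 to 10454 called genes. Same-numbered replicates did not deviate together (r from -0.25 to 0.089 over 9 pairs), so the numbers do not pair the libraries. With the replicate block 8375, 8708 and 10490 genes and 4, 5 and 7 members were called. With GC and length trends removed 7 of 7, 5 of 9 and 5 of 9 members tested were called. DHX58, TLR3 and IFIH1 rest on few counts per library.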
